A study of Homo sapiens with 8 samples.

Results

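The interferon regulatory factors (IRF) *IRF1*, *IRF2*, *IRF3*, *IRF7* and *IRF9*, and the signal transducers and activators of transcription (STAT) *STAT2*, *STAT3* and *STAT6*, were followed in 4 lung cancer cell lines. These 8 genes, read by 10 probes, were taken by symbol from the 22439 genes that could be named on the array. Each of the 8 two-color Agilent arrays compared treated cells, labelled with Cy5, against control cells of the same line, labelled with Cy3, so that a log2 ratio above 0 means a higher signal after treatment. Total RNA was labelled, and no array carried the reverse labelling.

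The first group held EBC-1 and SK-MES-1 cells, both lung squamous cell carcinoma lines, transfected with the passenger strand microRNA miR-150-3p (1 array per line). The second held SBC-3, derived from a small cell lung cancer, after transfection with siDONSON-1, siDONSON-2 or siDONSON-3, which are siRNAs against *DONSON* (1 array per siRNA). The third held A549 lung adenocarcinoma cells in which *LOXL2* had been edited with CRISPR/Cas9 (A549-GE1, A549-GE2 and A549-GE3; whether each is a clone is not given in the sources used here). The Cy3 controls of the transfections carry the words mock and no transfection in different labels, and the effects of reagent, duplex and sequence cannot be told apart. The A549 controls were unedited. Nothing states that the arrays of a group came from separate control cultures, so p-values measure the spread between these arrays, which may in part be technical.

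IRF and STAT proteins carry signals of viral nucleic acids and cytokines to the nucleus. Sensors of foreign RNA or DNA switch on IRF3 and IRF7, which drive the genes of type I interferons. Interferon receptors then act through JAK kinases to assemble ISGF3, a complex in which IRF9 supplies DNA binding and STAT2 supplies activation, and which switches on the interferon-stimulated genes. IRF1 is induced by interferon gamma and drives antigen presentation genes, while IRF2 binds similar sites and often opposes IRF1. STAT3 answers cytokines of the interleukin-6 family, and STAT6 answers interleukin-4 and interleukin-13. Several of these factors are themselves interferon-induced, and IRF3, IRF7 and the STAT proteins act largely through changes of the protein. A messenger RNA array does not read the protein of any member.

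The targeted genes fell on their own arrays. The log2 ratio of *DONSON* was -2.15, -1.79 and -2.11 on the siDONSON-1, siDONSON-2 and siDONSON-3 arrays, and that of *LOXL2* was -2.49, -2.67 and -2.59 on the A549-GE1, A549-GE2 and A549-GE3 arrays. On the remaining arrays *DONSON* ran from -1.02 (EBC-1) to 0.19 (A549-GE2), and *LOXL2* from -0.81 (siDONSON-1) to 0.56 (siDONSON-2). Between 27229 and 31785 probes per array were well above background in at least 1 channel, and no spot was saturated. The labelled cell types were only partly borne out by their defining markers in the control channel. The squamous markers did not set the squamous lines apart. *SOX2* was well above background in all 4 lines, at 5.85 in SBC-3, 0.92 in A549, -0.65 in EBC-1, and -1.74 in the SK-MES-1 line (log2 signal relative to the 75th percentile of each array). *TP63* was lower in SK-MES-1 (-2.91) than in SBC-3 (-1.75) and not well above background in EBC-1, and *KRT5*, *KRT6A* and *DSG3* were not in either squamous line. EBC-1, SK-MES-1 and A549 each showed 3 of 5 adenocarcinoma markers, without *NKX2-1* and *SFTPB*, and SBC-3 showed 3 of 7 small cell markers, without *INSM1*. Of 4 leukocyte markers, 3 were well above background in EBC-1 and 2 in each other line.

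The promoters of *IRF9*, the member that passed the test in 2 groups, and of *IRF1*, the member with the highest ratio on any array, are shown because they were the only 2 of the 5 member promoters in the table that held a gamma-activated site, the sequence that STAT dimers bind. The window ran from 250 bases before the gene start to 50 bases after it (RefSeq, GRCh38.p14), and capitals mark the match to TTCNNNGAA, which reads the same on both strands. The match began 124 bases before the start of *IRF1* (minus strand, chr5:132490724-132491023) and 63 bases before that of *IRF9* (plus strand, chr14:24161015-24161314).
IRF1: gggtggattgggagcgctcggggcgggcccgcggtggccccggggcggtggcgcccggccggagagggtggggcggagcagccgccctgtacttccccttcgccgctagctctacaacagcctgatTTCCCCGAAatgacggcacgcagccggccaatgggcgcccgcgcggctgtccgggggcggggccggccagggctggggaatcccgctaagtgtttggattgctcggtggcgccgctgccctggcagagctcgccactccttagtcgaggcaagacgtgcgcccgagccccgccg
IRF9: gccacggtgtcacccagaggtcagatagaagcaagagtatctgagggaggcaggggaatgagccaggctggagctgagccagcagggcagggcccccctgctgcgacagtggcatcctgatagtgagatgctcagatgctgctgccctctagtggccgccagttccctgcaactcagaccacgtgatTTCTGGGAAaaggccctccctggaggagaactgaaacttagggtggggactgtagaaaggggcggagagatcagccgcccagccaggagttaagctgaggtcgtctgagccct
Of 35116 promoters, 7.66% held such a match. The core of the interferon-stimulated response element, GAAANNGAAA on either strand, was in 3.57% of promoters and in 0 of the 5 member windows, *STAT2*, *STAT3* and *STAT6* included. A match describes letters and not binding.

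After miR-150-3p transfection, *IRF9* was higher in both EBC-1 and SK-MES-1. Most other members had higher ratios in EBC-1, but none of these differences between the lines passed its test. In cultures read in bulk, more cells with a transcript and more of it per cell cannot be told apart. Counts are given over the 7 members whose control signal was well above background on these arrays, which leaves out *IRF2*. In EBC-1, 6 of 7 had log2 ratios above 0, where 54.1% of all genes did. The same 6 lay beyond the 95% limits of the error that the scanner software gave each ratio. In SK-MES-1, 6 of 7 were above 0 as well, against 52.5% of all genes, but *IRF9* alone lay beyond those limits. The share of all genes beyond those limits was not computed, so these counts of members beyond them are a description only. The median of the 7 was 1.03 in EBC-1, where that of all genes was 0.053. It was 0.12 in SK-MES-1, where that of all genes was 0.018. Ratios above 1, a doubling, were found for 4 of 7 in EBC-1 (*IRF1*, *IRF9*, *STAT2* and *STAT3*) against 5.96% of all genes, and for 1 of 7 in SK-MES-1 against 2.57% of all genes. After background correction by normexp and within-array loess, which shrinks the ratios of dim probes, these counts were 1 and 0.

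**Figure D1:**
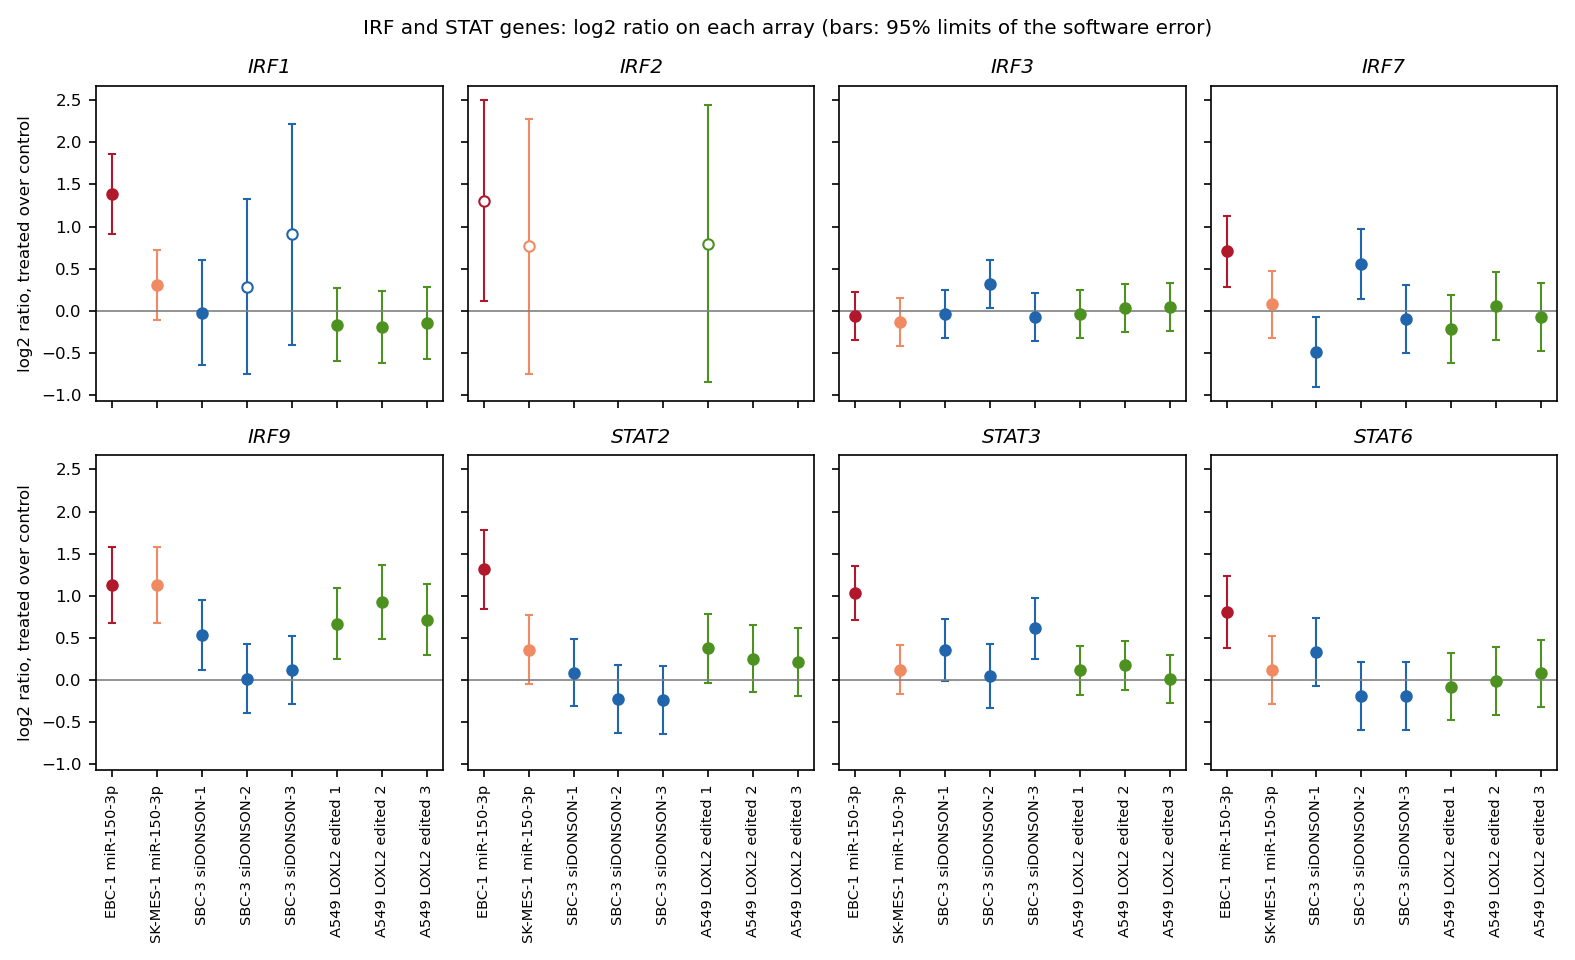
Log2 ratio of treated over control signal (vertical axis) of each of the 8 genes on the 8 arrays (horizontal axis), with bars for the 95% limits of the software error and open points where the control signal was not well above background. *IRF9* sits at 1.13 on both miR-150-3p arrays and between 0.67 and 0.93 on the *LOXL2*-edited arrays, while *IRF3* stays between -0.13 and 0.32 on all 8.

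*IRF9* encodes the DNA-binding subunit of ISGF3. Its log2 ratio was 1.13 in each squamous line, 0.53, 0.02 and 0.12 with siDONSON-1, siDONSON-2 and siDONSON-3, and 0.67, 0.93 and 0.72 in A549-GE1, A549-GE2 and A549-GE3, with software errors between 0.21 and 0.23. It was therefore above 0 on all 8 arrays, beyond the 95% software limits on 6 of them, and the miR-150-3p arrays were the highest of the 8. In the limma fit, *IRF9* was 2.18-fold higher with miR-150-3p (log2 1.13, SE 0.14, n = 2, adjusted p = 0.0167) and 1.71-fold higher in the edited A549 cells (log2 0.77, SE 0.12, n = 3, adjusted p = 0.00718). It was the only member to pass in either comparison, which called 2.47% and 7.58% of all genes higher. The siDONSON estimate was 0.22 (SE 0.12, adjusted p = 0.265). The miR-150-3p call was lost without the EBC-1 array (adjusted p = 0.130) and when the spread came from the miR-150-3p arrays alone (adjusted p = 0.324), and the A549 call was lost without A549-GE2 (adjusted p = 0.0645). With every ratio above 0 and no reversed labelling, a dye effect of the *IRF9* probe cannot be told apart from a change in each group taken alone.

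The contrast of miR-150-3p with the mean of the other treatments, in which a constant dye effect cancels, gave *IRF9* a difference of 0.63 on the log2 scale (SE 0.16, adjusted p = 0.0871). The member did not pass there. Normexp with loess brought it to 0.58 (adjusted p = 0.0200), and leaving out siDONSON-1, the array of that group with the highest *IRF9*, brought it to 0.71 (adjusted p = 0.0454). Leaving out that array raises the difference by itself. *IRF9* passed this contrast in only these 2 of the 14 alternative settings run. On a scale set to each array's 75th percentile of control signal, *IRF9* went from 0.83 in control SK-MES-1 to 1.96 in transfected SK-MES-1, and control EBC-1 stood at 2.04 before treatment. Transfected EBC-1 stood at 3.17, and the edited A549 cells at 0.65 to 0.73.

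*STAT2*, the activating subunit of ISGF3, had log2 ratios of 1.31 in EBC-1, 0.36 in SK-MES-1, 0.09, -0.22 and -0.23 on the siDONSON-1 to siDONSON-3 arrays, and 0.38, 0.26 and 0.21 on the A549-GE1 to A549-GE3 arrays. EBC-1 stood apart, and SK-MES-1 lay within the range of the edited A549 arrays. The miR-150-3p estimate was 0.84 (SE 0.21, adjusted p = 0.0562), which did not pass. It passed with normexp and loess (0.80, adjusted p = 0.0372) and on probes above background in both channels (adjusted p = 0.0417). Of the 15 alternative settings run, it passed in 4. *STAT2* is a bright probe, and its EBC-1 ratio was 1.25 after normexp and loess.

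*IRF1*, the interferon gamma-induced activator, had log2 ratios of 1.38 in EBC-1, 0.31 in SK-MES-1, -0.02, 0.29 and 0.91 on the siDONSON arrays, and -0.16, -0.19 and -0.14 on the A549 arrays. On the siDONSON-2 and siDONSON-3 arrays the control signal was not well above background and the software errors were 0.53 and 0.67, so the spread of that group lies within its measurement error. In EBC-1, 2.99% of all genes had a higher ratio than *IRF1*. Its miR-150-3p estimate was 0.85 (SE 0.27, adjusted p = 0.0935). After normexp and loess the EBC-1 ratio was 0.83 and the group estimate 0.50 (adjusted p = 0.0468). Of the 15 alternative settings run, *IRF1* passed in 3.

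*IRF2*, which competes with IRF1 for its sites, was near the detection limit. Its Cy3 signal was not well above background on any array, and its Cy5 signal was on the EBC-1, SK-MES-1 and A549-GE1 arrays alone, where the log2 ratios were 1.31, 0.77 and 0.80 with software errors of 0.61, 0.77 and 0.84. Against the lowest signal that was well above background, the miR-150-3p arrays show *IRF2* at least 1.01-fold higher, which leaves the measured 2.05-fold estimate (adjusted p = 0.0687) without a firm size. After normexp and loess the 3 ratios were 0.12, 0.04 and 0.01.

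*IRF3* and *IRF7* stand at the sensing end of the pathway. *IRF3*, which is present before any signal and is switched on by phosphorylation, had log2 ratios of -0.06 in EBC-1, -0.13 in SK-MES-1, -0.04, 0.32 and -0.07 on the siDONSON arrays, and -0.03, 0.04 and 0.05 on the A549 arrays. It was the only member below 0 on both miR-150-3p arrays, and its estimate there was -0.10 (95% interval -0.38 to 0.18, adjusted p = 0.627). *IRF7*, which ISGF3 induces and which amplifies the interferon response, reached a log2 ratio of 0.71 in EBC-1 against 0.08 in SK-MES-1. It read -0.48, 0.55 and -0.09 with siDONSON-1, siDONSON-2 and siDONSON-3, and -0.21, 0.06 and -0.07 in the edited A549 cells. The siDONSON-1 and siDONSON-2 ratios both lay beyond the 95% software limits, on opposite sides of 0. *DONSON* was low on both arrays, and the cause of the difference in *IRF7* was not tested. The siDONSON estimate for *IRF7* was -0.01 (95% interval -0.47 to 0.45, adjusted p = 0.984).

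*STAT3* and *STAT6*, the cytokine-responsive members, followed the same EBC-1 pattern. *STAT3* had log2 ratios of 1.03 in EBC-1, 0.12 in SK-MES-1, 0.36, 0.05 and 0.61 on the siDONSON arrays, and 0.11, 0.18 and 0.01 on the A549 arrays. Its 2 probes read 1.08 and 0.99 in EBC-1 but 0.38 and 0.85 with siDONSON-3, so the size of the siDONSON-3 value rests on which probe is read. After normexp and loess the EBC-1 ratio was 0.45. *STAT6* had log2 ratios of 0.81 in EBC-1, 0.12 in SK-MES-1, 0.33, -0.19 and -0.19 on the siDONSON arrays, and -0.08, -0.01 and 0.08 on the A549 arrays. The miR-150-3p estimates were 0.58 for *STAT3* (SE 0.21, adjusted p = 0.124) and 0.47 for *STAT6* (SE 0.19, adjusted p = 0.146).

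Counted over members, 1 of 8 passed after miR-150-3p transfection and 1 of 7 in the edited A549 cells, *IRF9* in each. In the siDONSON arrays limma called 0 of 7, with 0 at an unadjusted p below 0.05, where 7.22% of all genes were called in either direction. Adjusted p-values there ran from 0.260 to 0.984. The contrast of miR-150-3p with the other treatments called 0 of 7, with 3 at an unadjusted p below 0.05 (*IRF1*, *IRF9* and *STAT2*), where 1.74% of all genes were called. Because all groups share one estimate of the spread, which holds the gap between EBC-1 and SK-MES-1, treating these lines as separate groups raised the miR-150-3p count to 4 of the 7 members with a measured control signal (*IRF1*, *IRF9*, *STAT2* and *STAT3*). *IRF2* passed there as well, but against a control signal not well above background. In that setting the spread came from the siDONSON and A549 arrays alone. Calls over all genes rose with it too, by the counts given in the last section, so the gain was not particular to the members.

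**Figure D2:**
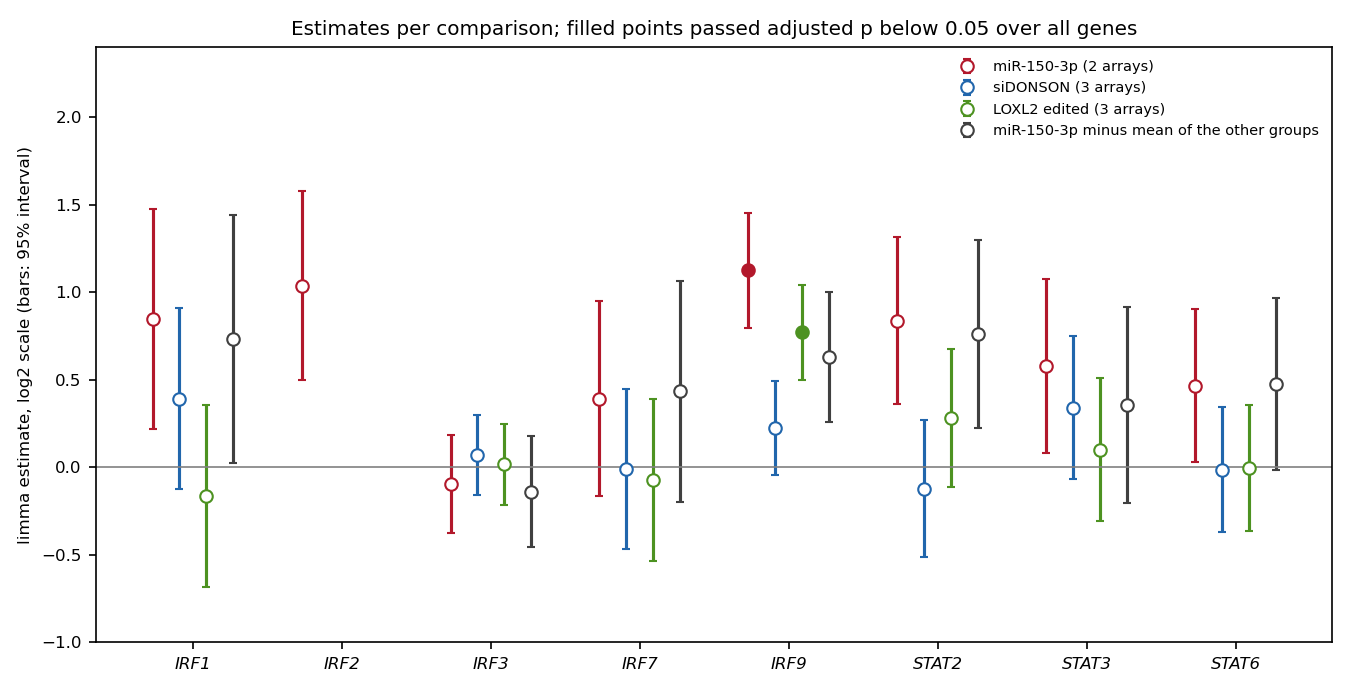
Limma estimates of the log2 ratio (vertical axis) with 95% intervals for each gene (horizontal axis) in the 3 groups and in the contrast of miR-150-3p with the mean of the other groups; filled points passed at an adjusted p below 0.05. The only filled points are *IRF9* with miR-150-3p, at 1.13, and *IRF9* in the edited A549 cells, at 0.77.

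The gap between the squamous lines was then tested, with the spread taken from the siDONSON and A549 arrays, which assumes that the lone EBC-1 and SK-MES-1 arrays vary as those do. *STAT2* exceeded its SK-MES-1 ratio by 0.95 in EBC-1 on the log2 scale (95% interval 0.42 to 1.48, adjusted p = 0.0871), *STAT3* 0.91 (adjusted p = 0.160) and *IRF1* 1.07 (adjusted p = 0.235). The difference was 0.69 for *STAT6*, 0.63 for *IRF7* and 0.07 for *IRF3*. None of the 7 passed in limma, 4 had an unadjusted p below 0.05 (*IRF1*, *STAT2*, *STAT3* and *STAT6*), and 2.51% of all genes were called. After normexp and loess *IRF1* and *STAT2* passed (adjusted p = 0.0133 and 0.0460), and without siDONSON-1 *STAT2* did (adjusted p = 0.0461). For *IRF9* the difference was 0.00, with an interval from -0.67 to 0.68 that leaves room for a change of either sign.

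Before treatment, the lines differed in how much of each member they carried. Levels in the control channel are given per probe, as log2 signal relative to the 75th percentile of the array, and are compared between lines but not between genes. *IRF7* was at 3.81 in EBC-1, followed by SK-MES-1 at 2.54, against 0.68 ± 0.025 (SD, n = 3) in A549 and 0.57 ± 0.050 (SD, n = 3) in SBC-3. EBC-1 thus held 8.71-fold more *IRF7* signal than A549, a gap matched or passed by 9.26% of all genes. After normexp these values were 4.51-fold and 2.77%. *IRF9* followed the same order for the squamous lines, with 2.04 in EBC-1, 0.83 in SK-MES-1, 0.27 ± 0.015 in SBC-3 and -0.085 ± 0.10 in A549. *IRF1* stood at 0.80 in EBC-1, -0.11 in SK-MES-1 and -0.99 ± 0.045 in A549, and in SBC-3 it was well above background on 1 of 3 arrays, with a mean of -3.11 ± 0.84.

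*STAT2* and *STAT6* were instead highest in SBC-3 (4.69 ± 0.010 and 4.83 ± 0.040), and lowest in A549 (3.10 ± 0.011 and 2.84 ± 0.013). EBC-1 and SK-MES-1 did not separate for *STAT2*, at 4.20 and 4.20, and stood at 4.13 and 4.54 for *STAT6*. *STAT3* was 0.13 ± 0.074 in A549, -0.098 in EBC-1, -0.34 in SK-MES-1 and -1.68 ± 0.11 in SBC-3, where it was lowest. *IRF3* was at 2.82 in EBC-1, 2.36 in SK-MES-1, 2.11 ± 0.037 in A549 and 1.08 ± 0.038 in SBC-3. *IRF2* had no level above background.

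Differences of more than 2-fold between lines were common on these arrays. They were found for 5 of 7 members and 42.1% of all genes between EBC-1 and A549, for 3 of 7 and 35.6% between SK-MES-1 and A549, for 5 of 7 and 40.9% between SBC-3 and A549, and for 2 of 7 (*IRF7* and *IRF9*) and 37.3% between EBC-1 and SK-MES-1. With 1 control array in each squamous line these are values without a test, and the SD of SBC-3 and A549 covers arrays whose control RNA may be shared. The direction of each difference of more than 2-fold held with median scaling, quantile normalization and normexp.

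**Figure D3:**
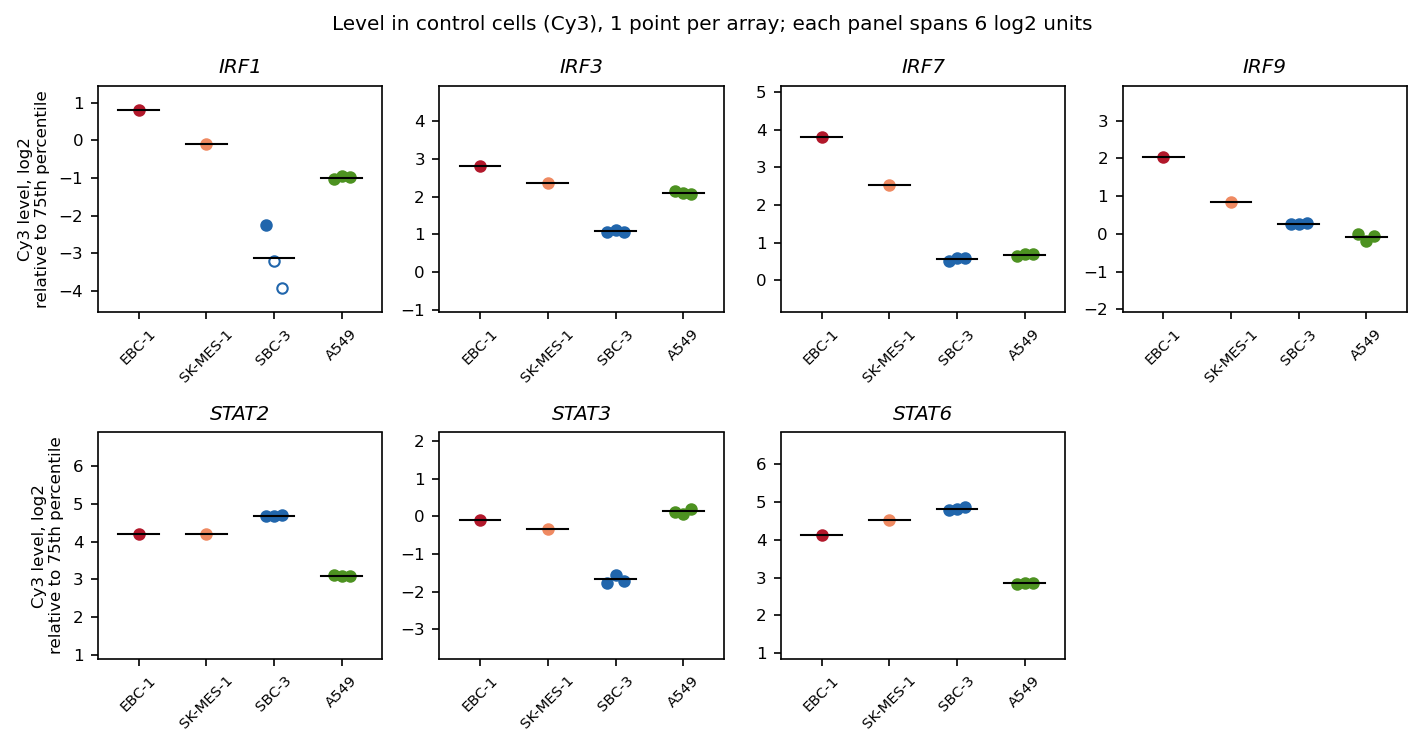
Control (Cy3) signal of 7 members on a log2 scale relative to the 75th percentile of each array (vertical axis) in the 4 cell lines (horizontal axis), with 1 point per array, a line at the mean and open points where the signal was not well above background. *IRF7* falls from 3.81 in EBC-1 to 0.57 in SBC-3, whereas *STAT6* rises from 2.84 in A549 to 4.83 in SBC-3.

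The genes around the members were read from lists of ligands, receptors, activators, inhibitors and targets. Most ligands were too dim to test. Of 11 on the array, 3 were tested with miR-150-3p, and limma called 0, with 0 at an unadjusted p below 0.05. Of 14 receptors and JAK kinases tested with miR-150-3p, 1 rose, *IFNGR1*, a subunit of the interferon gamma receptor (0.83, adjusted p = 0.0497). Of 11 activators of IRF3 and IRF7, 1 fell, the Toll-like receptor adaptor *MYD88* (-0.97, adjusted p = 0.0231), and the median of the list was -0.11. Among 15 negative regulators, *USP18*, an interferon-induced inhibitor of the type I receptor, rose (0.51), and the phosphatase gene *PTPN1* (-0.61) and *PIAS2* (-0.52) fell. Over all genes tested in this comparison, 2.47% were called higher and 2.90% lower.

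The targets of ISGF3 had ratios mostly above 0 in both squamous lines. With miR-150-3p, 5 of 35 tested targets rose and 0 fell, 33 of 35 had estimates above 0, and the median was 0.62 where that of all genes was 0.035. The antiviral genes *MX1* (1.91), *IFITM1* (1.80), *IFIT3* (1.71), *IFIT1* (1.51) and *PARP12* (0.50) passed. *MX1* had log2 ratios of 2.03 (EBC-1) and 1.80 (SK-MES-1), between -0.42 and 0.76 on the siDONSON arrays, and between -0.71 and -0.27 on the A549 arrays. Among targets well above background in both channels, 32 of 36 in EBC-1 were above 0, with a median of 0.77, and 33 of 34 on the SK-MES-1 array, with a median of 0.47. In the contrast with the other treatments, which called 0.536% of all genes higher and 1.21% lower, *MX1* (2.01) and *IFITM1* (1.58) passed among 21 tested. In the comparison of the single EBC-1 and SK-MES-1 arrays, whose spread is borrowed from the other cell lines and which was added after seeing the data, 3 of 21 targets passed (*IFIT2*, 2.55 higher in EBC-1, *IFIT3*, 1.77, and *IFIT1*, 1.33), where 0.552% of all genes were called higher in EBC-1 and 1.96% lower.

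In the edited A549 cells, where *IRF9* also rose, the ISGF3 targets were called about as often as all genes, of which 7.58% were higher and 6.77% lower. Of 30 tested, 2 rose, *IFIT1* (1.61) and *ISG15* (0.80), and 2 fell, the RNA-sensing synthetase genes *OAS1* (-1.30) and *OAS3* (-0.67), and the median was 0.01 against 0.02 for all genes. Of the 5 further IRF and STAT genes tested there, 3 rose and 0 fell, whereas limma called 0 of 5 with miR-150-3p and 0 of 3 with siDONSON, with 2 and 0 at an unadjusted p below 0.05. Of 4 ligands tested 2 were called higher, the interferon gene *IFNE* (0.62) and *IL6*, which signals through STAT3 and whose control signal was not well above background, so that its ratio has no firm size. Of 13 STAT3 targets, *HIF1A* (1.06) and *BCL3* (0.57) rose and *MYC* fell by 0.63. The receptor subunit *IFNGR2* fell by 0.49, as 1 of 15 receptors and kinases called. Of 11 activators, the DNA sensor *CGAS* fell by 0.54 and *MAVS*, the adaptor of RNA sensors, rose by 0.37. *PTPN1* rose by 0.56 as 1 of 15 negative regulators, and *NLRC5*, an activator of antigen presentation genes, by 0.57 as 1 of 9 IRF1 targets.

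**Figure D4:**
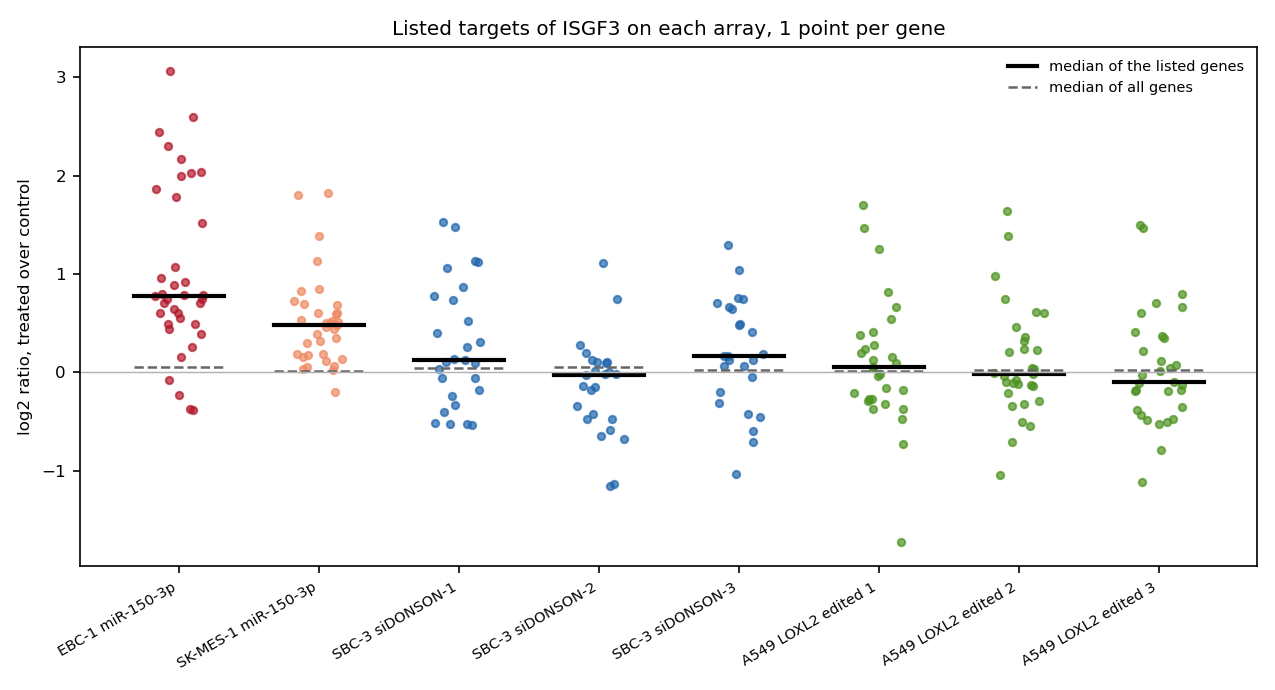
Log2 ratio (vertical axis) of each measured target of ISGF3 on each array (horizontal axis), with solid lines for the median of the listed genes and dashed lines for the median of all genes. The listed median stands at 0.78 for EBC-1, at 0.48 for SK-MES-1 and between -0.10 and 0.16 on the other 6 arrays.

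In the siDONSON arrays limma called 0 of 25 ISGF3 targets, with 5 at an unadjusted p below 0.05, and their median was 0.05 against 0.03 for all genes. Of 7 IRF1 targets tested there, 2 rose, *TAP1*, a peptide transporter subunit (0.62), and *PSMB9*, an immunoproteasome subunit (0.49), where 4.01% of all genes were called higher and 3.21% lower. The other 5 did not pass, 3 of the 7 estimates were above 0, and the median was -0.06. With miR-150-3p both genes also rose, by 0.85 and 0.71, as 2 of 12 IRF1 targets, and the median was 0.78. In the comparison of the single EBC-1 and SK-MES-1 arrays, with the same limits as above, *IDO1* (4.0 higher in EBC-1) and *ICAM1* (2.02) passed of 7 tested. Of 11 STAT3 targets, *PIM1* (0.56) and *BCL3* (0.42) rose with siDONSON. The kinase gene *JAK1* rose by 0.48 as 1 of 14 receptors and kinases, and *TRAF3*, an activator of the IRF3 kinases, fell by 0.47 as 1 of 9 activators. With miR-150-3p, where *STAT3* and *STAT6* did not pass, limma called 0 of 13 STAT3 targets and 0 of 6 STAT6 targets, with 5 and 0 at an unadjusted p below 0.05.

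Genes whose ratio ran most like that of a member over the 8 arrays were listed for the 5 members measured on all arrays whose ratios spanned more than 1. *STAT3* was nearest to *UBR1* (r = 0.993), *SOCS3* (0.978) and *IFT20* (0.971), and *STAT2* to *SPPL2A* (0.991), *EPHX2* (0.977) and *DBNL* (0.976). *IRF9* was nearest to *ASPSCR1* (0.971), *LINC00482* (0.966) and *SLC16A5* (0.960), *IRF1* to *GEMIN7* (0.985), *AP4S1* (0.973) and *RABGGTA* (0.969), and *IRF7* to *NDUFB10* (0.973), *YPEL2* (0.973) and *POLDIP3* (0.970). These are the highest of 12862 correlations on 8 shared arrays and are a description only.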

How the data were processed

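RNA of treated (Cy5) and control (Cy3) cells was hybridised to 8 two-color Agilent arrays on 1 slide, and per the file headers signals were extracted with Feature Extraction 12.1.1.1 (annotation grid hg19). The deposited processed intensity of each channel is already background-subtracted and dye-normalized, the deposited log10 ratio and its error come from the same software, and the deposited value table equals that log10 ratio. The labels name Trizol for RNA extraction. From these, control spots and outlier-marked spots (81 to 133 per array) were left out, spots of a probe were averaged, and log2 ratios were taken. A probe counted where either channel was well above background, and a gene was the mean of its counted probes. Gene names came from RefSeq (GRCh38.p14), which matched 24782 of 50096 accessions. Differences between groups were tested with limma 3.58.1 in R 4.3.3, with 3 group means fitted to all 8 arrays (5 residual degrees of freedom), over the genes with values on every array compared, two-sided, with Benjamini-Hochberg adjustment at 0.05. A ratio tested against 0 leaves out the spread of the control RNA. The fit of each group against 0 was checked on simulated data in which changed genes had the same shift on all 8 arrays. That check did not cover a gap between the squamous lines, nor the contrast of miR-150-3p with the other treatments. The precision is limited by the number of arrays. The 8 members and all gene lists were chosen with earlier results of these data known, and the comparison of EBC-1 with SK-MES-1 was added after seeing the data. The text names all members, up to 3 genes at each end of those called in a list, and the 3 genes most like a member. Alternatives were normexp (offset 50, on the median signals, since the files used here hold no mean signals) with loess, median centring, other filters on dim probes, the brightest probe, each group's own spread, separate squamous lines, leaving out each array, and other scalings of the control channel.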

Additional observations from a re-analysis of the deposited data

How the results depend on the processing

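No called member changed direction under an alternative run. Over members and alternatives, a call was kept 27 times, gained 22 times and lost 3 times, and 449 times there was no call in either. The 3 lost calls were all of *IRF9*, whose adjusted p ran from 0.00361 to 0.324 with miR-150-3p and from 0.00217 to 0.0645 in the edited A549 cells. For miR-150-3p, limma called 3 members with normexp and loess, 2 on probes above background in both channels, 5 with separate squamous lines (*IRF2*, with no measured control signal, among them), and 0 with the spread of its own arrays, where it called 0 genes in all. Leaving out 1 array gave 0 to 5 members, with 0 without EBC-1 and 5 without SK-MES-1. In the edited A549 cells the count was 3 with the spread of their own arrays (*IRF9* and *STAT2* higher, *IRF1* lower). It was 0 without A549-GE2, or 0 to 1 with each array left out in turn. For miR-150-3p against the other treatments it was 1 with normexp and loess, 1 with separate lines and 0 to 3 with 1 array left out, the 3 without SK-MES-1. For EBC-1 against SK-MES-1 it was 2 with normexp and loess and 0 to 1 with 1 array left out. The siDONSON count stayed at 0 in all alternatives run. Where calls over all genes are not printed below for an alternative, its member count cannot be set against the share of all genes. With normexp and loess, ratios above 1 were found for 1 member (EBC-1, from 5 with *IRF2* included) and 0 members (SK-MES-1), and with normexp on the control channel 2-fold differences were found for 2 members between EBC-1 and A549, 2 between SBC-3 and A549 and 0 between EBC-1 and SK-MES-1. The causes were not tested, except that fewer arrays give fewer degrees of freedom. Over all genes, miR-150-3p called 352 higher and 413 lower, against 811 and 727 with normexp and loess, 64 and 134 with no filter on dim probes, 1212 and 1477 with separate lines, 0 and 1 without EBC-1 and 1387 and 1585 without SK-MES-1. For siDONSON 579 were higher and 464 lower, which median centring turned to 443 and 533. Dim probes limit *IRF2*, and *IRF1* in SBC-3. No paired analysis was possible because each ratio already pairs treated and control RNA on 1 array, and replicate numbers shared by the siDONSON and edited A549 groups name different siRNAs and edited lines in different cell lines.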
